A study of Mus musculus with 12 samples.

Results

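The proteasome is the protease that takes apart proteins tagged with ubiquitin, and the genes described here are its subunits, assembly chaperones, activators and inhibitor. They were chosen by name: protein-coding genes whose symbol is Psma, Psmb, Psmc, Psmd, Psme, Psmf or Psmg followed by a number, without Psmb8, Psmb9 and pseudogenes. The rule found 46 members among 50686 genes in the count tables, 21841 of them protein-coding. It took 17 genes of the core particle, 17 of the regulatory cap, 7 assembly chaperones and 5 activators and inhibitors. Of the 46, 44 had enough counts to be tested, and Psma8 and Psmb11 did not.

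Their transcripts were counted by RNA-seq in B220-positive, reporter-positive B cells sorted from the spleens of 12 mice. YC mice (n = 3) were normal controls of genotype YFPstopF/+ Cg1Cre/+, sorted as YFP-positive cells. BIC mice (n = 3) were Blimp1F/F IKK2castopF/stopF Cg1Cre/+, and pBIC mice (n = 6) carried p53F/F in addition, both sorted as GFP-positive cells and both labelled as mouse models of ABC-DLBCL, an aggressive lymphoma of B cells with an activated expression profile. All 3 groups carried the Cg1-Cre recombinase, which is driven from the IgG1 constant locus and is active mainly in germinal centre B cells. The F alleles are floxed, so Blimp1 (gene Prdm1) is removed in BIC and pBIC and p53 (gene Trp53) in pBIC, and IKK2ca is a constitutively active form of the NF-kB kinase IKK2 (gene Ikbkb) behind a stop cassette. YC mice carried neither Blimp1F nor IKK2ca, and the labels give no age or sex.

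As background, the core particle is a barrel of outer alpha rings, which gate the entrance, and inner beta rings, which hold the cutting sites. The cap sits on the end of the barrel, with a ring of ATPases that unfolds the substrate and a lid and base of other subunits that bind ubiquitin and remove it. Dedicated chaperones help to assemble both, and other activators can take the place of the cap. B cells also make inducible beta subunits that replace the constitutive cutting subunits and form the immunoproteasome, known for producing peptides for MHC class I.

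Values are CPM, a gene's count per 1000000 counts of its library with TMM factors applied, and levels of different genes are compared only as CPM per kb of exon. Total counts were 33127283 to 47067627 per library. Trp53 was lower in pBIC, with 16.2 to 32 CPM in its 6 libraries against 137, 140 and 147 CPM in YC and 149, 72.1 and 209 CPM in BIC 1, 2 and 3 (edgeR adjusted p 0.000191 and 0.000583). Ikbkb was higher, with 217 to 249 CPM in YC, 381 to 538 in BIC and 453 to 510 in pBIC. Prdm1 transcripts ran from 18.1 to 20 CPM in YC, from 5.33 to 41.1 in BIC and from 0.718 to 21.3 in pBIC. Which exons are floxed is not given in the sources used here, so counts over a whole gene do not check the deletion. The 10 B cell markers summed to 8220 to 9590 CPM in YC, 10100 to 10600 in BIC and 2340 to 7920 in pBIC. The 12 proliferation markers summed to 2140 to 3220, 587 to 1070 and 2090 to 3920 CPM in the same order, the 10 macrophage and monocyte markers to 52.7 to 101, 184 to 298 and 28 to 373, and the 12 T cell markers to 70.3 to 115, 201 to 211 and 40.3 to 157. The 10 neutrophil markers summed to 1.97 to 268, 56.5 to 1440 and 4.99 to 77.2 CPM. The 8 plasma cell markers summed to 1760 to 2090 CPM in YC, 550 to 1420 in BIC and 461 to 1380 in pBIC. In the same order, the 9 erythroid markers found summed to 20.4 to 551, 103 to 313 and 21.8 to 440 CPM. The 7 NK cell markers came to 9.01 to 15.7, 15.9 to 22.8 and 5.61 to 21, and the 6 megakaryocyte markers to 2.26 to 5.51, 4.38 to 17.5 and 1.02 to 8.19. No marker on these lists was at 0 in all libraries of a group. Genes of a list did not all move alike, and single genes made up much of some sums. In the T cell sums, Cd3g held 87, 85.3 and 12 CPM in BIC 1, 2 and 3. Lck held 49.7, 68.6 and 77.7 in YC 1, 2 and 3, and Il7r 98.9 in pBIC 4. In the macrophage and monocyte sums, Adgre1 was lower in BIC than in YC, at 3.32 to 4.1 against 25.2 to 28.4 CPM, while Lyz2 and Cd68 were higher. The part of other cells in the results below was not tested, and in bulk samples fewer cells of a type and less RNA per cell cannot be told apart.

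In pBIC cells most of the proteasome genes were higher than in normal YC cells by the test. Against YC, 31 of the 44 tested members rose in pBIC and 0 fell, at an edgeR adjusted p under 0.05; among all 17754 genes tested, 22% were called, 11.8% as higher and 10.2% as lower. The median log2 fold change of the members was 0.82, a 1.76-fold difference, against 0.10 for all genes. Against BIC, 23 of 44 rose in pBIC and 0 fell (19.7% of all genes called, 10.9% as higher and 8.78% as lower), with a median of 0.70 against 0.09 for all genes. In BIC against YC, 1 of 44 rose, the core chaperone Psmg4, and 0 fell (8.88% of all genes called, 3.9% as higher and 4.97% as lower), with a median of 0.10 against 0.01. With so few of all genes called as higher there, this count is not read as a result about the members. A fit of only BIC and YC called 6 members as higher, with 4602 of all genes called. No member was lower at an unadjusted p under 0.05 in any of the 3 comparisons, where 3 members were higher in BIC against YC, 37 in pBIC against YC and 33 in pBIC against BIC. DESeq2 called 3, 30 and 23 members as higher, and as lower it called 1, the sparsely counted Psma8 in pBIC against BIC. The 2 pBIC comparisons share the pBIC libraries and the 2 comparisons with YC share the YC libraries, so their counts are not independent.

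**Figure D1:**
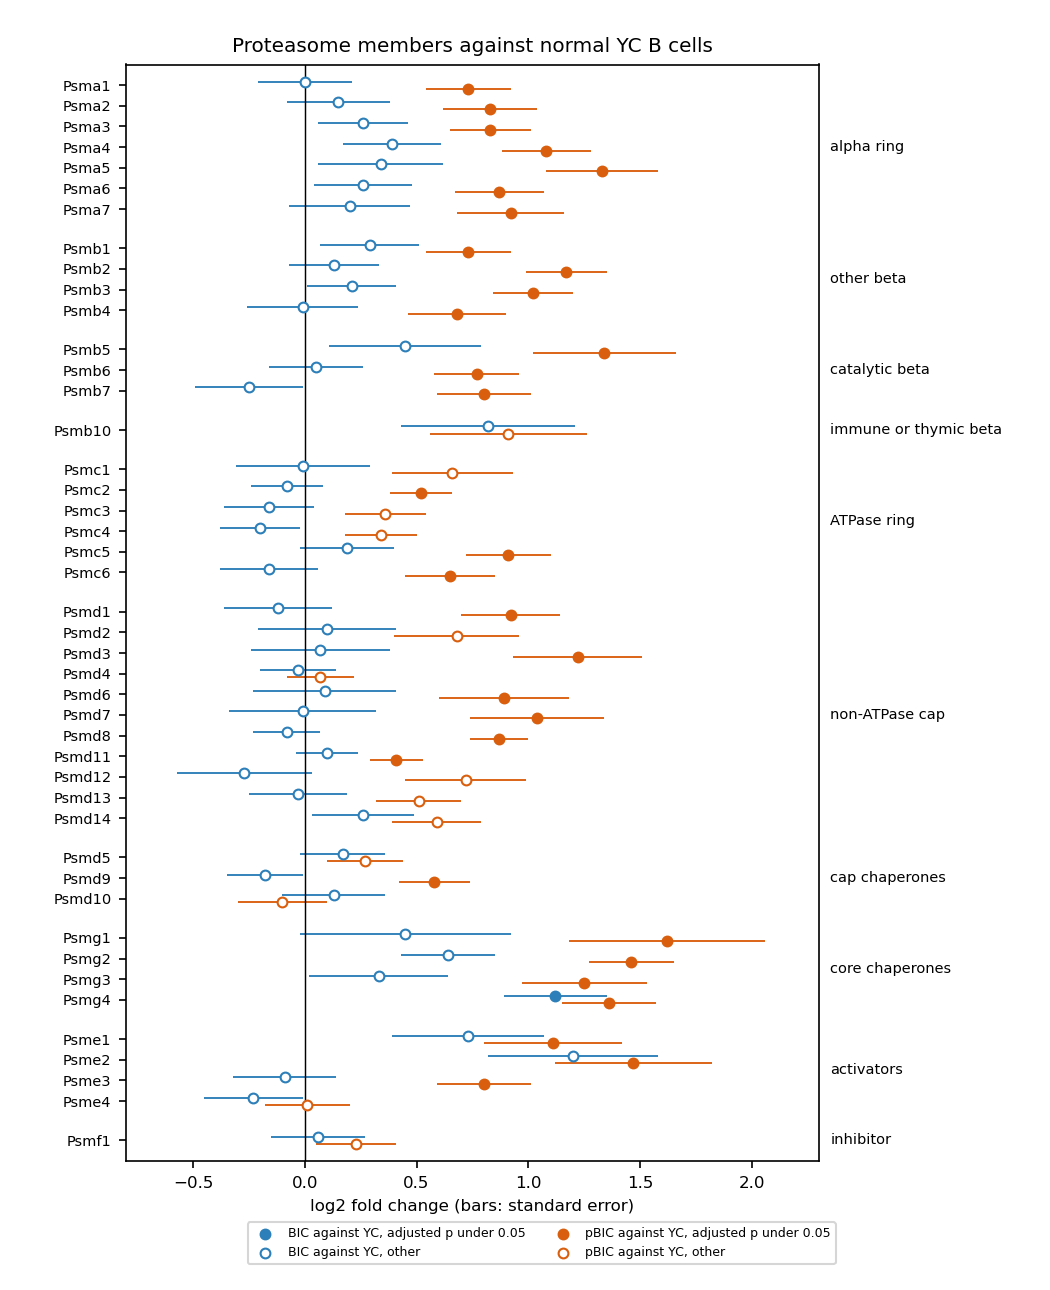
Fitted log2 fold changes of the 44 tested members (horizontal axis, bars are 1 standard error) for BIC against YC in blue and pBIC against YC in orange, with members grouped by class. Filled points passed an edgeR adjusted p under 0.05: 31 members in pBIC and 1, Psmg4, in BIC, with all filled points to the right of 0.

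No overlap between libraries was also common among the members. Every pBIC library was above every YC library for 28 of 44 members (12.9% of all genes), and above every BIC library for 21 (11.7% of all genes), while for 0 members was every pBIC library below every YC library (13.2% of all genes) or below every BIC library (9.9%). Every BIC library was above every YC library for 11 members, or 25% of those tested, which is near the 21.9% of all genes, and below for 1, Psmd9 (23.2% of all genes). In pBIC, 21 members rose against both other groups, 10 against YC alone by the test, and 2, Psmc4 and Psmd12, against BIC alone. The 11 members called in neither were Psmb10, Psmc1, Psmc3, Psmd2, Psmd4, Psmd5, Psmd10, Psmd13, Psmd14, Psme4 and Psmf1. The counts of calls leaned on single control libraries. In pBIC against YC the 31 calls became 13 without YC 1 and 11 without YC 2, and in pBIC against BIC the 23 became 5, 6 and 9 without BIC 1, BIC 2 and BIC 3, while 0 members fell in each of these refits.

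Since so many members moved together, their promoters were read for known motifs. RefSeq start sites on GRCm38.p6 were found for 38 members, with 41 promoters of 300 bases, from 250 before to 50 after the start. The core of the antioxidant response element, to which NRF1 binds, a factor known for switching on proteasome genes when proteolysis falls short, was searched on both strands as TGACNNNGC. It stood in 6 of 41 member promoters, or 14.6%, against 12.4% of all 32851 promoters, and the genes were Psmb5, Psmb6, Psmc6, Psmd9, Psmd12 and Psme4. The E-box CACGTG, bound by MYC and related factors, stood in 4 (Psma4, Psmb10, Psmd9 and Psme3), or 9.76%, against 7.15% of all. The counted gene begins at 54950790 for Psma4 and at 123169413 for Psmd9, so the last bases printed for Psma4 and all of those for Psmd9 lie inside it. The end of the 300-base Psma4 promoter was found in no annotated transcript of that gene, so its start site is uncertain. The bases before the RefSeq start of 5 of these genes, each of which rose in pBIC against YC, are shown 5′ to 3′ on the coding strand. The motif named after the gene is in capitals and everything else in lower case.
Psmb5, antioxidant response element, chr14:54617996-54618245, minus strand: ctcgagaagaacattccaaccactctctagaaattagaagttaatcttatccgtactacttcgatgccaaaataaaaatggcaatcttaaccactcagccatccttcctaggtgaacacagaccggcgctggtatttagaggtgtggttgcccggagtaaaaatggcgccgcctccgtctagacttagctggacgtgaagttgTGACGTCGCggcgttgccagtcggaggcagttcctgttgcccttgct
Psmb6, antioxidant response element, chr11:70525107-70525356, plus strand: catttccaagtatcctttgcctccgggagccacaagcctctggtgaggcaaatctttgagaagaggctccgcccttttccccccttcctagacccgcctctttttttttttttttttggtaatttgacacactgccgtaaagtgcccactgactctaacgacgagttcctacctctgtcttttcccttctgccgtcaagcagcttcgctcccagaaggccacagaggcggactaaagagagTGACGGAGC
Psmd9, antioxidant response element, chr5:123227940-123228189, plus strand: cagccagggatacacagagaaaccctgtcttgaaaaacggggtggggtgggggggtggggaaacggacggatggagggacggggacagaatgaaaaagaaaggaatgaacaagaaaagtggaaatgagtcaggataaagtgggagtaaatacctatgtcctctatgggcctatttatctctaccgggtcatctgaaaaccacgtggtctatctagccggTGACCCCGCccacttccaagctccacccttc
Psma4, E-box, chr9:54950609-54950858, plus strand: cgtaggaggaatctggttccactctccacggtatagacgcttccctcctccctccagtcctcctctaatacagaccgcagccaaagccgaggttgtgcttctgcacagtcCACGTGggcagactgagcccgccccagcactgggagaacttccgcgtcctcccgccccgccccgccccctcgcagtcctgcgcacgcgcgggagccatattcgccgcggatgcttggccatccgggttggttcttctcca
Psme3, E-box, chr11:101315963-101316212, plus strand: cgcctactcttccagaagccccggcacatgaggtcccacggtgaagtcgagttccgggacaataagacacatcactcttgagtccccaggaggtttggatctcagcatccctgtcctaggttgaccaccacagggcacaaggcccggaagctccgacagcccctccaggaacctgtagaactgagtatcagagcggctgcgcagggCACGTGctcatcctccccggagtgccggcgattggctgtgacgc

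Of the other motifs, 1 stood below its share of all promoters and 2 above. CCAAT, the letters of the CCAAT box bound by the NF-Y complex, stood in 13 of 41 member promoters (31.7%) against 37.4% of all promoters, with 7 of 14 core promoters and 4 of 15 cap promoters. The core of the interferon-stimulated response element stood in 5 (Psmb3, Psmd4, Psmd9, Psme1 and Psmg4), or 12.2%, against 3.44% of all, and the kappa B site bound by NF-kB in 1, Psme4, or 2.44%, against 1.47% of all. In these promoters 0 pairs of matches to different motifs overlapped, and the Psmd9 promoter printed above holds its E-box in lower case before the capitals. Of the promoters of members that rose in pBIC against YC, 4 of 28 held the antioxidant letters and 3 of 28 the E-box, and of those not called, 2 of 12 and 1 of 12. A match is a description of the letters and does not show that a factor binds there.

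The alpha ring had 7 tested members, and all 7 rose in pBIC against YC, where 11.8% of all genes were called as higher. The log2 fold changes ran from 0.73 (Psma1) to 1.33 (Psma5). Psma5, an alpha subunit on chromosome 3 (108256926 to 108279974, plus strand, GRCm38), had 49.3, 49.1 and 71.5 CPM in YC, 60.7, 78.7 and 75.9 in BIC, and 91.9 at the lowest, 142 at the median and 199 at the highest in pBIC. All 6 pBIC libraries were above all 6 others. The log2 fold change was 1.33 ± 0.25 (SE) against YC, 2.51-fold, with an adjusted p of 0.0038, and 0.99 ± 0.25 against BIC (adjusted p 0.0181). Psma5 shares 23.7% of its 100-base stretches with Gm8394 and Gm12989, so its reads cannot all be told apart from theirs. Psma4, whose promoter with an E-box is printed above, had 67.4, 75.9 and 80.2 CPM in YC, 94.1, 104 and 94.1 in BIC, and 120, 149 and 221 CPM as the lowest, median and highest of pBIC. Its 3 groups did not overlap and stood in the order YC, BIC, pBIC; the step from YC to BIC, a log2 fold change of 0.39 ± 0.22, did not pass (adjusted p 0.304), and the steps to pBIC passed against YC (1.08 ± 0.20, adjusted p 0.00354) and against BIC (0.69 ± 0.20, adjusted p 0.0318).

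Psma7 had the highest p of the ring in that comparison, with 97.9, 101 and 126 CPM in YC, 112, 143 and 118 in BIC, and 129, 197 and 293 as the lowest, median and highest of pBIC. Its pBIC libraries were above all YC libraries, but BIC 2 was above pBIC 4. It rose by 0.92 ± 0.24 on the log2 scale against YC (adjusted p 0.0175), with 0.72 ± 0.24 against BIC (adjusted p 0.0524). Psma1, Psma2, Psma3 and Psma6 rose against YC by 0.73, 0.83, 0.83 and 0.87 on the log2 scale, and Psma1, Psma2 and Psma3 rose against BIC by 0.73, 0.68 and 0.57. The calls of Psma2 and Psma3 against BIC were kept in 7 of 19 other settings each, and Psma3 shares 13.4% of its 100-base stretches with Gm13835. None of the 7 was called in BIC against YC (8.88% of all genes called), where fitted values ran from 0.00093 to 0.39. Psma8, an alpha subunit known from testis, had 0 counts in each YC library, which allows up to 0.0906 CPM, 26, 6 and 6 counts in BIC 1, 2 and 3, and 4 counts over all 6 pBIC libraries.

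Of the beta subunits that do not cut, all 4 rose in pBIC against YC (11.8% of all genes as higher). Psmb2 had 57.7, 67.9 and 77.9 CPM in YC, 68, 76 and 79 in BIC, and 114, 155 and 190 CPM as the lowest, median and highest of pBIC. The pBIC libraries stood clear of the other groups, which overlapped each other. The log2 fold change of Psmb2 was 1.17 ± 0.18 against YC, 2.26-fold (adjusted p 0.00138), and 1.04 ± 0.18 against BIC (adjusted p 0.00326). Psmb3 had 67.2, 75.4 and 86.2 CPM in YC, 83.3, 90.9 and 90.9 in BIC, and 116, 149 and 204 in pBIC by the same 3 values, again with pBIC above all others. It rose by 1.02 ± 0.18 against YC (adjusted p 0.00258) and by 0.80 ± 0.18 against BIC (adjusted p 0.00993).

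Psmb4 stood nearest to the threshold. It had 135, 112 and 140 CPM in YC, 123, 139 and 121 in BIC, and 153, 194 and 292 as the lowest, median and highest of pBIC. The pBIC libraries were above all 6 others, pBIC 6 and pBIC 1 only by a little, and the log2 fold changes were 0.68 ± 0.22 against YC (adjusted p 0.0472) and 0.70 ± 0.22 against BIC (adjusted p 0.048). The call against YC was kept in 3 of 19 other settings, and the one against BIC in 5 of 19. Psmb1 rose by 0.73 against YC (adjusted p 0.0192), with pBIC 1 at 399 CPM and the other 5 pBIC libraries at 209 to 265.

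The cutting subunits of the constitutive core rose in pBIC as well. Psmb5, which carries the chymotrypsin-like site and is the main target of the drug bortezomib (chromosome 14, 54614120 to 54617995, minus strand, GRCm38), had 24.7, 34 and 36.6 CPM in YC, 44, 44.5 and 41.9 in BIC, and 47.2, 69.7 and 131 as the lowest, median and highest of pBIC. The groups did not overlap, and within pBIC the values spread from just above BIC in pBIC 6 to 131 CPM in pBIC 5. Its log2 fold change in pBIC against YC, 1.34 ± 0.32 or 2.53-fold, was the highest of the core (adjusted p 0.0108). Against BIC it was 0.88 ± 0.31 (adjusted p 0.0623), and in BIC against YC 0.45 ± 0.34 (adjusted p 0.44). Psmb5 shares 22.2% of its 100-base stretches with the genes Gm3375 and Mir686, from which reads cannot all be told apart.

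Psmb6, with the caspase-like site (chromosome 11, 70525367 to 70527858, plus strand), had 77.5, 64.2 and 78.7 CPM in YC, 67, 81.8 and 78.6 in BIC, and 83.1, 129 and 152 in pBIC by the same 3 values. YC and BIC overlapped, and the lowest pBIC library, pBIC 4, was just above both. It rose by 0.77 ± 0.19 on the log2 scale against YC (adjusted p 0.014) and by 0.72 ± 0.19 against BIC (adjusted p 0.0213). Psmb7, with the trypsin-like site, had 45.3, 47.5 and 61.1 CPM in YC, 35.3, 47.6 and 46 in BIC, and 62, 87.4 and 122 in pBIC. It rose by 0.80 ± 0.21 against YC (adjusted p 0.0187) and by 1.06 ± 0.22 against BIC (adjusted p 0.00663), the largest of the core in that comparison. Of the Psmb7 exon bases, 11.8% also belong to Nek6, so part of its reads cannot be assigned with certainty.

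The inducible subunit Psmb10 did not pass in any of the 3 comparisons. Psmb10, the member that takes the place of Psmb7 in the immunoproteasome, had 74.9, 80.9 and 91.5 CPM in YC, 109, 187 and 139 in BIC, and 71.2, 140 and 260 as the lowest, median and highest of pBIC. All BIC libraries were above YC, and the pBIC libraries spread across both groups, with pBIC 4 below every YC library. The log2 fold change was 0.82 ± 0.39 in BIC against YC (adjusted p 0.21), 0.91 ± 0.35 in pBIC against YC (adjusted p 0.0822) and 0.09 ± 0.34 in pBIC against BIC (adjusted p 0.881). It passed in BIC against YC when only those groups were fitted (0.84, edgeR adjusted p 0.0187), and in pBIC against YC without pBIC 4 (1.07, adjusted p 0.0222). Psmb10 stood at 3.01 to 3.42 times the level of Psmb7 per kb in YC, at 6.06 to 7.91 times in BIC and at 2.3 to 4.53 times in pBIC. The ratio was thus higher in every BIC library than in every library of the other groups, which was not tested.

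Psmb8 and Psmb9, which the naming rule leaves out and which replace Psmb5 and Psmb6, also stood highest relative to them in BIC. Per kb, Psmb8 stood at 1.5 to 1.56 times Psmb5 in YC, 1.69 to 2.33 times in BIC and 0.62 to 1.55 times in pBIC. Psmb9 stood at 1.03 to 1.33 times Psmb6 in YC, 1.71 to 3.21 times in BIC and 0.45 to 1.54 times in pBIC. In each of the 3 pairs BIC was above the other groups with no overlap. The ratios were not tested, and how often ratios of other gene pairs separate the groups was not counted. Among single genes, 21.9% of all had every BIC library above every YC library. Neither Psmb8 nor Psmb9 passed in the edgeR fit over all 12 libraries with 1 coefficient per group. In BIC against YC their log2 fold changes there were 0.84 ± 0.33 (adjusted p 0.13) and 1.11 ± 0.44 (adjusted p 0.135). With the replicate number added to that fit as a block, Psmb8 passed in BIC against YC (edgeR adjusted p 0.0445). Fitted on those groups only, both passed (adjusted p 0.0154 and 0.0138), and Psmb8 also passed in pBIC against YC without pBIC 4 (adjusted p 0.034). Psmb11, the beta subunit of thymic epithelium, had 16 counts over the YC libraries, 0 over BIC and 4 over pBIC, too few to test.

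**Figure D2:**
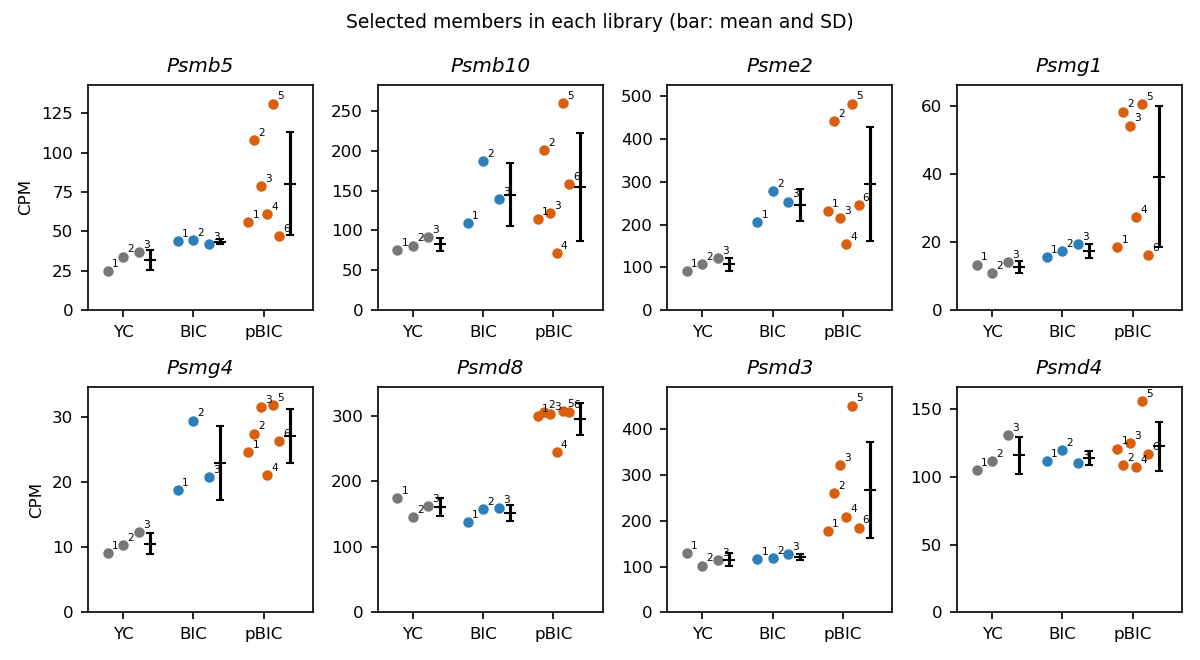
CPM in each library (points, numbered by replicate) for 8 members with the group mean and SD (bars), YC n = 3, BIC n = 3 and pBIC n = 6, each vertical axis from 0. Psmd8 sits at 245 to 307 CPM in pBIC and at 138 to 174 in the other libraries, Psmg1 and Psmb5 spread within pBIC, and Psmd4 overlaps in all groups. For Psmb10 and Psme2 every BIC library is above every YC library, and neither was called in BIC against YC.

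Of the 6 ATPases of the cap, 3 rose in pBIC against YC (11.8% of all genes as higher) and 4 against BIC (10.9%). In BIC against YC 0 were called, where 8.88% of all genes were. Psmc5 had 75.8, 74.6 and 76.6 CPM in YC, 83.1, 88.8 and 87.8 in BIC, and 104, 135 and 207 as the lowest, median and highest of pBIC. The 3 groups did not overlap. It rose by 0.91 ± 0.19 on the log2 scale against YC, 1.88-fold (adjusted p 0.00622), and by 0.71 ± 0.19 against BIC (adjusted p 0.0219). Psmc2 had 85.6, 87.4 and 99.3 CPM in YC, 87.9, 78.9 and 91.5 in BIC, and 111, 129 and 159 in pBIC by the same 3 values. It rose by 0.52 ± 0.14 against YC (adjusted p 0.021) and by 0.60 ± 0.14 against BIC (adjusted p 0.0135).

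Psmc3 had the highest p of the ring, with 101, 113 and 138 CPM in YC, 101, 112 and 104 in BIC, and 108, 150 and 197 in pBIC. The pBIC libraries overlapped both groups, and the log2 fold changes of 0.36 ± 0.18 (adjusted p 0.165) and 0.52 ± 0.18 (adjusted p 0.0621) did not pass. Psmc6 rose by 0.65 against YC and by 0.80 against BIC, and Psmc4 by 0.53 against BIC only by the test, a call kept in 9 of 19 other settings, with 0.34 against YC (adjusted p 0.138). In BIC against YC the fitted values of 5 of the 6 ATPases were below 0, down to -0.20 for Psmc4, and none was called.

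Among the 11 other cap subunits, 6 rose in pBIC against YC (11.8% of all genes as higher) and 5 against BIC (10.9%). Psmd8, a lid subunit (chromosome 7, 29174188 to 29180701, minus strand, GRCm38), had 174, 146 and 162 CPM in YC, 138, 158 and 160 in BIC, and 245, 304 and 307 as the lowest, median and highest of pBIC. Outside pBIC 4 the pBIC libraries lay between 300 and 307 CPM, all above the other groups. Its log2 fold change was 0.87 ± 0.13 against YC, 1.83-fold (adjusted p 0.00124), and 0.96 ± 0.13 against BIC (adjusted p 0.00132), and both calls were kept in all 19 other settings. Psmd3, another lid subunit (chromosome 11, 98682554 to 98695979, plus strand), had 129, 102 and 114 CPM in YC, 116, 119 and 127 in BIC, and 177, 234 and 451 in pBIC. It rose by 1.22 ± 0.29 against YC, 2.32-fold (adjusted p 0.0108), and by 1.15 ± 0.29 against BIC (adjusted p 0.0164), the largest of the cap in each.

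Psmd4, a subunit that binds ubiquitin chains, was called in none of the comparisons. It had 105, 112 and 131 CPM in YC, 112, 120 and 110 in BIC, and 107, 119 and 156 as the lowest, median and highest of pBIC. The groups overlapped in all comparisons, and the log2 fold changes were -0.03 ± 0.17 in BIC against YC (adjusted p 0.932), 0.07 ± 0.15 in pBIC against YC (adjusted p 0.756) and 0.10 ± 0.15 in pBIC against BIC (adjusted p 0.657). A difference smaller than this error cannot be seen with these numbers of mice.

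Psmd1 and Psmd7 rose against YC by 0.92 and 1.04 and against BIC by 1.04 and 1.05. Psmd6 and Psmd11 rose against YC only by the test, by 0.89 and 0.41, and these calls were kept in 7 and 8 of 19 other settings. Psmd12 rose against BIC by 0.99 (adjusted p 0.0262), with 0.72 against YC (adjusted p 0.0739). Psmd2, Psmd13 and Psmd14, the last of which is the deubiquitinase of the lid, were not called, with fitted values of 0.51 to 0.68 against YC and adjusted p of 0.054 to 0.103. None of the 11 was called in BIC against YC (8.88% of all genes called).

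The core chaperones pair up to build the alpha ring and the barrel on it. They had the highest median log2 fold change of the classes in pBIC against YC, 1.41. All 4 rose there (11.8% of all genes as higher), by 1.25 to 1.62. Single members of other classes, such as Psme2 at 1.47, lay within that range. Psmg1 (chromosome 16, 95979933 to 95990960, minus strand, GRCm38) had 13.4, 10.8 and 14.1 CPM in YC, 15.5, 17.3 and 19.4 in BIC, and 16.1, 40.8 and 60.6 as the lowest, median and highest of pBIC. pBIC 1 and pBIC 6, at 18.5 and 16.1 CPM, lay within the BIC range, and pBIC 2, 3 and 5 at 54.2 to 60.6. Its log2 fold change was 1.62 ± 0.44 against YC, 3.07-fold (adjusted p 0.0208), and 1.17 ± 0.43 against BIC (adjusted p 0.0739). Its partner Psmg2 had 16.7, 18.8 and 19.8 CPM in YC, 24.8, 26.8 and 34.9 in BIC, and 42.5, 47.5 and 66.6 in pBIC, so the groups did not overlap. It rose by 1.46 ± 0.19 against YC (adjusted p 0.000566, the lowest of all members) and by 0.82 ± 0.19 against BIC (adjusted p 0.0113), and the step from YC to BIC, 0.64 ± 0.21, did not pass (adjusted p 0.0777).

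Psmg3 had 7.71, 7.66 and 8.36 CPM in YC, 8.98, 9.92 and 10.9 in BIC, and 9.79, 21.2 and 23.4 as the lowest, median and highest of pBIC. pBIC 6 lay within BIC and the others above it, and Psmg3 rose by 1.25 ± 0.28 against YC (adjusted p 0.00899) and by 0.93 ± 0.28 against BIC (adjusted p 0.0376), the latter kept in 7 of 19 other settings. Its partner Psmg4 (chromosome 13, 34162964 to 34178172, plus strand) had 9.17, 10.3 and 12.3 CPM in YC, 18.8, 29.5 and 20.8 in BIC, and 21.1, 26.9 and 31.9 in pBIC. Both tumour groups were above YC and overlapped each other. Psmg4 rose in BIC by 1.12 ± 0.23, 2.18-fold (adjusted p 0.0134), and in pBIC by 1.36 ± 0.21, 2.57-fold (adjusted p 0.00139), with 0.24 ± 0.20 between them (adjusted p 0.427). The BIC call ended without YC 1, YC 2 or BIC 2, where 0 members rose in BIC, and with Xist as a covariate.

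Of the 3 chaperones of the cap base, 1 rose in pBIC against YC (11.8% of all genes as higher) and against BIC (10.9%). Psmd9, whose promoter is printed above, had 22.6, 22.5 and 26.6 CPM in YC, 21.5, 21.3 and 20.5 in BIC, and 28.5, 36.8 and 40.6 as the lowest, median and highest of pBIC. The BIC libraries were below and the pBIC libraries above all YC libraries, and Psmd9 rose in pBIC by 0.58 ± 0.16 against YC (adjusted p 0.0188) and by 0.76 ± 0.16 against BIC (adjusted p 0.00691). Of its exon bases, 25.5% also belong to Gm26745, so part of its reads cannot be assigned with certainty. Psmd5 had 38.8, 44.9 and 45.2 CPM in YC, 44.8, 50.2 and 50.4 in BIC and 35.5, 53.3 and 60.8 in pBIC, and Psmd10, known as gankyrin, 18.6, 22 and 24.8, then 24.6, 25.2 and 21.5, then 14.5, 20.9 and 25.4. Both overlapped in all groups and neither was called; Psmd10 was the only member with a fitted value below 0 in pBIC, at -0.10 ± 0.20 against YC (adjusted p 0.75) and -0.23 ± 0.19 against BIC (adjusted p 0.441).

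Psme1 and Psme2, neighbours on chromosome 14 whose products form the interferon-inducible PA28 activator, were higher in both tumour groups than in YC. Psme2 (55587441 to 55591113, minus strand, GRCm38) had 91.5, 107 and 122 CPM in YC, 206, 279 and 254 in BIC, and 155, 239 and 483 as the lowest, median and highest of pBIC. All BIC and pBIC libraries were above YC, and pBIC spread on both sides of BIC. The log2 fold change was 1.47 ± 0.35 in pBIC against YC, 2.76-fold (adjusted p 0.0108), and 1.20 ± 0.38 in BIC against YC, 2.31-fold, which did not pass (adjusted p 0.0692). The BIC difference passed in 5 of 19 other settings, with values of 1.19 to 1.23, among them DESeq2 (adjusted p 0.0365), a fit of only those groups (0.00206), and fits without pBIC 4 (0.0391) or pBIC 5 (0.0411). Psme1 had 156, 174 and 194 CPM in YC, 247, 336 and 284 in BIC, and 224, 318 and 590 in pBIC. It rose in pBIC by 1.11 ± 0.31 against YC (adjusted p 0.0242), with 0.73 ± 0.34 in BIC (adjusted p 0.208) and 0.39 ± 0.30 in pBIC against BIC (adjusted p 0.391). Psme2 shares 18.4% of its 100-base stretches with Psme2b.

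Psme3, whose product forms a related activator in the nucleus and whose promoter with an E-box is printed above, rose in pBIC against both other groups. It had 178, 138 and 155 CPM in YC, 128, 152 and 162 in BIC, and 206, 266 and 372 as the lowest, median and highest of pBIC. YC and BIC overlapped and all pBIC libraries were above both, with 0.80 ± 0.21 against YC (adjusted p 0.0171) and 0.89 ± 0.21 against BIC (adjusted p 0.0126). Per kb, Psme2 stood at 0.86 to 1.32 times Psme3 in YC, at 2.62 to 3.07 times in BIC and at 1.03 to 2.65 times in pBIC.

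Psme4, a large activator known for work on chromatin, had 90.6, 117 and 115 CPM in YC, 87.4, 87.6 and 99.3 in BIC, and 93.9, 97.7 and 165 as the lowest, median and highest of pBIC, where the highest was pBIC 4. The inhibitor Psmf1 had 39.3, 41.5 and 43.9 CPM in YC, 42.1, 45.1 and 42.8 in BIC, and 32.7, 48.3 and 61.7 in pBIC. Neither was called in any comparison, with 0.01 ± 0.19 (adjusted p 0.965) and 0.23 ± 0.18 (adjusted p 0.375) in pBIC against YC.

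Core and cap were then set side by side. In pBIC against YC, 14 of 15 tested core members rose and 9 of 17 cap members, with median log2 fold changes of 0.87 and 0.66. Of all genes, 11.8% were called as higher there. In pBIC against BIC, 10 of 15 and 9 of 17 rose (10.9% of all genes as higher), with medians of 0.72 and 0.67. In BIC against YC, edgeR called 0 of 15 and 0 of 17, with 0 of either at an unadjusted p under 0.05. DESeq2 called 1 core and 0 cap members, and the medians were 0.21 and -0.03. Since edgeR called only 8.88% of all genes there, 0 calls in sets this small are not read as a result about core or cap. These are descriptions, and the difference between core and cap was not tested. The cap calls in pBIC against YC fell to 2 with Xist as a covariate, 3 without YC 1, 2 without YC 2 and 4 without YC 3, and the core calls to 11, 6, 6 and 13. In pBIC against BIC the core calls fell to 2, 3 and 3 and the cap calls to 2, 2 and 3 without BIC 1, BIC 2 and BIC 3.

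Summed per kb, the core members stood at 719, 772 and 915 CPM per kb in YC 1, 2 and 3, at 863, 1044 and 954 in BIC 1, 2 and 3, and at 1080, 1510 and 1925 as the lowest, median and highest of pBIC. The cap members stood at 535, 578 and 663 in YC, at 560, 610 and 592 in BIC, and at 760, 914 and 1296 in pBIC. YC and BIC thus overlapped for both sums and pBIC lay above both. The ratio of the core sum to the cap sum came to 1.344, 1.335 and 1.38 in the YC libraries, 1.541, 1.712 and 1.612 in the BIC libraries, and 1.422, 1.55 and 1.828 as the lowest, median and highest of pBIC. It was lower in every YC library than in every tumour library, and BIC and pBIC overlapped, at 1.62 ± 0.0859 (SD, n = 3) and 1.60 ± 0.163 (SD, n = 6). How often ratios of other gene sets separate the groups was not counted.

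**Figure D3:**
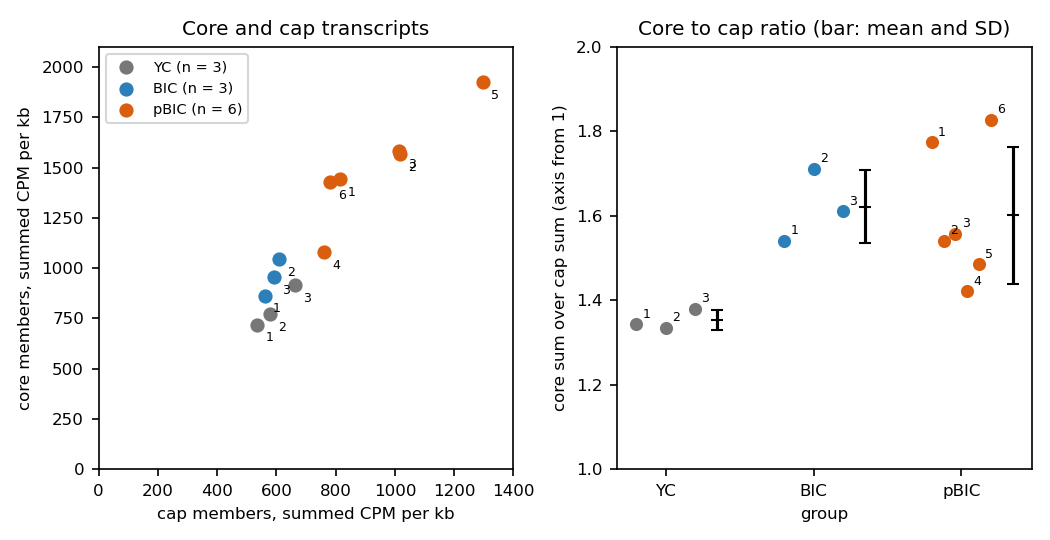
Left, the summed level of the core members against that of the cap members in CPM per kb, 1 point per library, numbered by replicate; right, their ratio by group with mean and SD, on an axis that starts at 1. The 3 YC ratios lie at 1.335 to 1.38, below all BIC and pBIC ratios, and pBIC 5 has the highest sums.

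The pBIC libraries differed among themselves in the level of the whole set. All members together took 0.373 ± 0.0299% of the counts in YC (SD, n = 3), 0.417 ± 0.0178% in BIC (SD, n = 3) and 0.642 ± 0.134% in pBIC (SD, n = 6). The median member lay above its YC mean by 0.39 on the log2 scale in pBIC 4, 0.55 in pBIC 1, 0.58 in pBIC 6, 0.83 in pBIC 2, 0.92 in pBIC 3 and 1.21 in pBIC 5. pBIC 5 was the highest of all 12 libraries for 34 of 44 members. pBIC 4 was the lowest of pBIC for 25, pBIC 6 for 10 and pBIC 1 for 8. Of the 44 members, 33 in pBIC 4 to 43 in pBIC 5 were above every YC library, and 10, 24 and 17 in BIC 1, 2 and 3. These counts by library were not made over all genes. They describe the libraries and do not set the members apart from other genes.

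**Figure D4:**
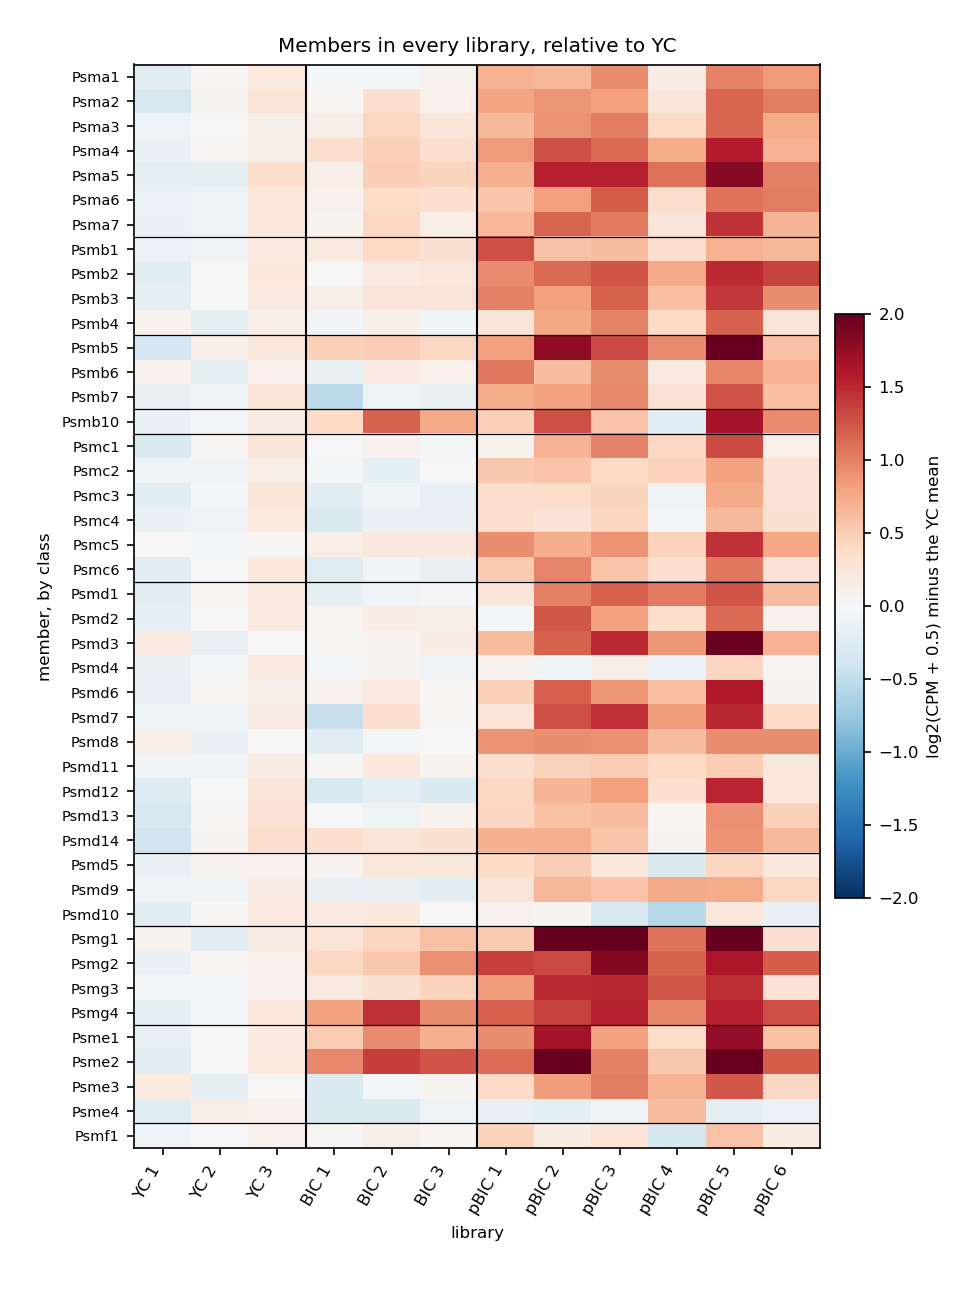
Each row is a member, grouped by class, and each column a library; the colour is log2(CPM + 0.5) minus the mean of the YC libraries, with values beyond 2 shown as 2. The pBIC columns are mostly red, most strongly pBIC 5 and least pBIC 4. The BIC columns are mostly paler, with the largest fitted values in BIC against YC for Psme2, Psmg4, Psmb10 and Psme1. Psmd4, Psmd10 and Psme4 show no common direction in pBIC, with pBIC 4 at 165 CPM for Psme4 and 14.5 for Psmd10.

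At the median, the members varied less within a group than the genes tested. The median of their SDs of log2 CPM was 0.18 for YC, 0.107 for BIC and 0.321 for pBIC, against 0.204, 0.246 and 0.416 for all genes tested. The sets were not matched for level, so this does not show that the members vary less than genes of like counts. In pBIC against BIC the summed proliferation markers moved with the members, at 2090 to 3920 against 587 to 1070 CPM. In pBIC against YC that sum overlapped, while the sum of the B cell markers was lower. The part of these differences in the results was not tested.

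Genes that work with the proteasome but do not carry its symbols were read from 3 lists of 35 genes. Of 9 genes for bound parts and assembly, 6 rose in pBIC against YC (11.8% of all genes as higher) and 6 against BIC (10.9%). In BIC against YC 0 were called, and 0 of 9 also had an unadjusted p under 0.05. With 8.88% of all genes called there, 0 calls in a list this short are not read as a result. Usp14, the deubiquitinase that docks on the cap, had 51.1, 55.3 and 58.2 CPM in YC, 40.4, 55.8 and 59.2 in BIC, and 95, 119 and 138 as the lowest, median and highest of pBIC. It rose by 1.10 ± 0.18 against YC (adjusted p 0.00167) and by 1.18 ± 0.18 against BIC (adjusted p 0.00184). Ecpas, a scaffold that holds core and cap together, rose by 1.0 ± 0.20 and 0.73 ± 0.19, and Pomp, the maturation factor of the core, by 0.67 ± 0.18 and 0.65 ± 0.18 in the same order. Sem1, a small lid subunit, rose against YC by 0.76 ± 0.20, with 0.50 ± 0.20 against BIC (adjusted p 0.0939).

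None of the 8 genes around NRF1 was called in pBIC against YC, where 0 had an unadjusted p under 0.05. Of all genes, 22% were called there, and a list of 8 is too short to set against that share. Nfe2l1, which encodes NRF1, was described after its values were seen. It had 127, 103 and 110 CPM in YC, 192, 208 and 181 in BIC, and 80.1, 136 and 140 as the lowest, median and highest of pBIC. It rose in BIC against YC by 0.77 ± 0.21 (adjusted p 0.0431) and fell in pBIC against BIC by 0.65 on the log2 scale (adjusted p 0.0259), with BIC above all other libraries. The Nfe2l1 calls are given from the fit over all 12 libraries only. Mafk, a partner of NRF1, fell in BIC against YC by 1.91 (adjusted p 0.0245), a call kept in 13 of 19 other settings. The Mafk call ended without BIC 1, BIC 2 or BIC 3, among others. The fitted values of Mafk, Keap1, Nfe2l2 and Mafg in pBIC against YC were -0.79, 0.34, -0.36 and 0.37 (adjusted p 0.148 to 0.449).

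Of 18 genes for ubiquitin supply and delivery, 3 rose and 1 fell in pBIC against YC, so that 4 of 18 were called, about the 22% of all genes. Rad23b, a shuttle that carries tagged proteins to the cap, had 184, 179 and 205 CPM in YC, 157, 172 and 201 in BIC, and 273, 350 and 362 as the lowest, median and highest of pBIC. It rose by 0.82 ± 0.15 against YC (adjusted p 0.00248) and by 0.92 ± 0.15 against BIC (adjusted p 0.00223). Vcp, the ATPase that extracts tagged proteins, rose by 0.75 ± 0.16 against YC, and Rps27a, which encodes ubiquitin fused to a ribosomal protein, by 0.93 ± 0.21. Ubqln2, another shuttle, had 62.4, 44.1 and 46 CPM in YC, 37.5, 45.1 and 31.6 in BIC and 12.2, 18.2 and 26.4 in pBIC. It fell by 1.45 against YC (adjusted p 0.00229) and by 1.03 against BIC (adjusted p 0.0155), with all pBIC libraries below all others.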

How the data were processed

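Per the labels' protocols, RNA of sorted splenic B cells was sequenced as 100-bp read pairs. The deposited values are raw counts per gene, 1 table per library with 50686 genes; per the file headers the authors made them with featureCounts 1.5.0 over exons of GENCODE M13 genes, counting the mates of a pair separately, without strand and without multi-mapping reads, so genes with close copies or antisense partners are uncertain. STAR, FastQC, edgeR and limma, and the builds mm10 and GRCm38, are named in the submitters' processing notes. Names and biotypes came from GENCODE M21 and matched 50462 identifiers. The design text counts the libraries as separate mice, and groups came from the sample titles.

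The test was edgeR 4.0.16 (R 4.3.3) over all 12 libraries: TMM factors, the default filter (minimum count 10), a robust quasi-likelihood fit with 1 coefficient per group, and Benjamini-Hochberg adjustment over 17754 genes, called at an adjusted p under 0.05. All adjusted p-values are from this fit unless DESeq2 or another setting is named. Those of another setting are adjusted over the genes tested in it. Standard errors (SE) are the log2 fold change over the root of its F statistic and restate the test. The fit was tested on simulated data. The floor for a count of 0 is 3 counts and covers counting error only. Alternatives were DESeq2 1.42.0, RLE factors, total counts, no filter, only the groups compared, a replicate block, Xist as a covariate, and leaving out each library. The core to cap ratio was also taken without exon length and from mean log2(CPM + 0.5).

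The members and gene lists were chosen with earlier results of these data known. Values by library are printed for the cutting subunits, Psmb10, the activators, the inhibitor and the core chaperones, and in the other classes for the 2 members with the lowest and the 1 with the highest p in pBIC against YC. Other called members are named with their fold change, and up to 4 linked genes a list in order of p in pBIC against YC. Promoters are from RefSeq, and shared 100-base stretches were counted over M21 transcripts.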

Additional observations from a re-analysis of the deposited data

Results flagged for a closer look

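In 5 of the 44 members, 1 pBIC library stood apart from the other 5 by Dixon's test, a gap to the nearest library above 0.625 of the range of the 6, which chance alone gives in about 1 of 20 groups. pBIC 1 was the highest for the beta subunit Psmb1, at 399 CPM with the next library at 265. pBIC 5 was the highest for the cap subunits Psmd4, at 156 CPM with the next at 125, and Psmd12, at 213 CPM with the next at 130. pBIC 4 was the lowest for the lid subunit Psmd8, at 245 CPM with the next at 300, and the highest for the activator Psme4, at 165 CPM with the next at 102. Psme4 was thus at its highest in the library where 25 of the 44 members were at their lowest within pBIC.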

How the results depend on the processing

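The calls rest on 3 YC and 3 BIC libraries, which limits what could pass: with each library left out in turn, the members rising ran from 11 to 35 in pBIC against YC, from 5 to 29 in pBIC against BIC and from 0 to 2 in BIC against YC, and 0 fell. The lowest counts came without YC 2 (11) and YC 1 (13), and without BIC 1 (5), BIC 2 (6) and BIC 3 (9), while all genes called ran from 1904 to 4376, from 1422 to 4134 and from 563 to 1867, and the linked genes called from 5 to 14, from 4 to 12 and from 0 to 4, in the same order. Of 31 member calls in pBIC against YC, 10 were kept under all 19 alternatives, of 23 in pBIC against BIC 5, and of 1 in BIC against YC 0. The median of the cap members in BIC against YC ran from -0.10 to 0.09 without single libraries, and the direction of the core and cap medians in the pBIC comparisons did not change under the alternatives tried. The core to cap ratio of YC was the lowest group mean under the alternatives run for it, while BIC and pBIC changed places: their difference on the log2 scale, pBIC minus BIC, was -0.023 and ran from -0.062 to 0.017 without single libraries, above 0 without BIC 2 (0.017) or pBIC 4 (0.01) and with mean log2 values in place of sums (0.029).

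Other settings moved counts as follows. In BIC against YC, DESeq2 called 2840 genes, 3 members as rising and 5 linked genes, and a fit of only those groups 4602, 6 and 6. Without the filter on low counts 1 linked gene was called there, and 14 members rose in pBIC against BIC, where the fit of only those groups gave 15. DESeq2 called 1 member, Psma8, as falling in pBIC against BIC. With the log2 CPM of Xist, a transcript of the inactive X chromosome, as a covariate, 0 members rose and 0 linked genes were called in BIC against YC, with a cap median of -0.29, and 17 members rose in pBIC against YC.

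The check made did not show that the replicate numbers in the titles pair the mice, and with so few libraries it cannot exclude it. The correlations of same-numbered deviations were 0.001, -0.131 and 0.073 for YC and BIC, and -0.027, -0.032 and 0.138 for YC and pBIC. For BIC and pBIC they were -0.083, 0.197 and 0.105, and pBIC 4, 5 and 6 carry numbers that no other group has. With the number as a replicate block, 2 members rose in BIC against YC, 29 in pBIC against YC and 26 in pBIC against BIC, and 1 linked gene was called in BIC against YC. Calls gained with the block were those of Psmb8 (adjusted p 0.0445) and Psme2 (0.0257) in BIC against YC and Psmb10 (0.0404) in pBIC against YC, among other genes. The sign of the fitted log2 fold change turned with the block for Psmb10 (-0.0016), Keap1 (-0.01) and Mafg (-0.39) in pBIC against BIC, Trp53 (-0.08) and Prdm1 (-0.23) in BIC against YC, and Psme4 (-0.13) in pBIC against YC.

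Signs also turned for other genes that were not called, and in 0 of 87 such cases was the gene called by either fit. With Xist as a covariate, BIC against YC gave Psmb5 -0.31, Psmg1 -0.27, Psmg3 -0.14, Psma5 -0.09, Psma7 -0.04, Psmd3 -0.31, Psmd6 -0.60, Psmd8 0.04, Psmd11 -0.01, Keap1 -0.08, Pomp -0.34 and Usp14 0.03, pBIC against YC gave Psme4 -0.16, and pBIC against BIC gave Mafg -0.01. In BIC against YC, Psma1 was -0.0029 by DESeq2, -0.0037 with RLE factors and -0.01 with total counts, Psmb4 0.01 without the filter and 0.01 with only those groups, and Psmd7 0.02 and 0.01. In pBIC against YC, Psme4 was -0.01 by DESeq2, -0.01 with RLE factors and -0.02 without the filter. In pBIC against BIC, Keap1 was -0.02, -0.01 and -0.04, and Mafg -0.02, -0.02 and -0.05 under the same 3 settings, and Mafg -0.003 with total counts. Without single libraries, values in BIC against YC ran from -0.10 to 0.13 for Psma1, -0.0045 to 0.32 for Psma2, -0.10 to 0.07 for Psmb4, -0.04 to 0.13 for Psmb6, -0.12 to 0.03 for Psmc2, -0.25 to 0.01 for Psmc3, -0.22 to 0.0039 for Psmd1, -0.01 to 0.16 for Psmd3, -0.10 to 0.09 for Psmd4, -0.16 to 0.18 for Psmd7, -0.17 to 0.01 for Psme3, -0.12 to 0.22 for Pomp, -0.15 to 0.07 for Usp14, -0.31 to 0.38 for Trp53 and -0.02 to 1.0 for Prdm1. In pBIC against YC they ran from -0.13 to 0.08 for Psme4, -0.01 to 0.17 for Psmd4 and -0.20 to 0.01 for Psmd10, and in pBIC against BIC from -0.12 to 0.29 for Psmb10, -0.08 to 0.05 for Keap1 and -0.14 to 0.12 for Mafg. The cause of these changes was not tested.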

Other observations

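The ubiquitin gene Ubb split the pBIC libraries, a pattern noticed after the values were seen. It had 999 and 862 CPM in pBIC 1 and 6 and 301 to 412 in the other 4. Maff, a partner of NRF1, had 91.7 and 75 CPM in pBIC 1 and 6 and 3.7 to 9.08 in the others, and in YC it had 128 CPM in YC 1 against 24 and 24.1 in YC 2 and 3. The same pBIC libraries had the highest core to cap ratios, 1.774 and 1.828, against 1.422 to 1.558 in the others, while YC 1 at 1.344 lay between YC 2 and YC 3. pBIC 1 and 6 also held the highest share of mitochondrial counts, 3.833% and 3.383% against 1.779% to 2.761% in the other pBIC libraries. The relation between these values was not tested.

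Psme2b, a close copy of Psme2 that the naming rule leaves out, had 11, 18.5 and 12.7 CPM in YC, 24, 22.3 and 23.8 in BIC and 6.23 to 17.4 in pBIC. It fell in pBIC against BIC by 0.91 on the log2 scale (edgeR adjusted p 0.0466), where Psme2 itself was not called, at 0.26 ± 0.33 (adjusted p 0.607).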
